A study of Homo sapiens with 6 samples.

Results

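The C2H2 zinc finger genes of human chromosome 19 whose symbol is ZNF followed by a number were examined in the long-read edit lists of RBFOX2-INSCRIBE. A gene counted as a member if any library listed an edited position on chromosome 19 for one of its isoforms and GENCODE release 44 calls the gene protein-coding. This rule found 64 genes, with 69 listed isoforms, among 7684 genes listed in the series, and release 44 holds 240 chromosome 19 genes that would fit it. All 6 libraries came from HEK293T cells, a human embryonic kidney line that the titles call HEK293T and another label HEK293XT, with 2 libraries in each of 3 groups. In RBFOX2-INSCRIBE, as the study's methods describe it, fixed cells received a rabbit antibody against the RNA-binding protein RBFOX2 and then Apo1-Nb, a purified fusion of the cytosine deaminase APOBEC1 with a nanobody against rabbit IgG, so that cytosines near the antibody could be converted to uracil. The enzyme-only control received Apo1-Nb and no RBFOX2 antibody, and the buffer-only control received neither. All are cells of 1 line, with replicates on separate slides, and p-values measure the spread between such slides. Titles number the enzyme-only pair 2 and 3, which is kept here, although another label has 1 and 2.

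C2H2 zinc finger proteins form the largest family of human transcription factors, and chromosome 19 carries them in tandem clusters that arose by gene duplication. Most carry a KRAB domain at the N terminus, which recruits the corepressor TRIM28 (KAP1) and through it histone methylation and heterochromatin proteins, and a long array of fingers that reads DNA, often in transposable elements. Each finger holds a pair of cysteines and a pair of histidines around a zinc ion and is joined to the next by a conserved linker, so that the coding sequence is a repeat written over and over with small changes. RBFOX2 binds the element UGCAUG in RNA and is best known for its control of alternative splicing from introns, and it also binds 3′ UTRs. Of the 64 genes, 54 matched a KRAB pattern, and the canonical proteins held between 1 and 21 fingers with a median of 12.

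With RBFOX2-INSCRIBE, 7.97% and 7.92% of the edited sites of these genes had UGCAUG within 50 nt. Examples were taken from such sites listed in both RBFOX2-INSCRIBE libraries and in no control library, so they are not typical of the edits. Those with the highest mean edit fraction, 5 sites in 3 genes, are given 5′ to 3′ on the strand of the gene (hg38), written as DNA, with the edited C in capitals and, where it fits within 30 bases, UGCAUG in capitals as TGCATG.
ZNF805, 3′ UTR, chr19:57257575-57257604, plus strand: gttaatgctTGCATGatttaCacttcatca
ZNF738, 3′ UTR, chr19:21378119-21378147, plus strand: attacatatgttctCagatttgttcttga
ZNF738, 3′ UTR, chr19:21378093-21378121, plus strand: tttgtTGCATGcaaaaattttttCtcatt
ZNF738, 3′ UTR, chr19:21378083-21378111, plus strand: aaaatgaaCttttgtTGCATGcaaaaatt
ZNF443, coding sequence, chr19:12431511-12431539, minus strand: attacataTGCATGaaagaaCgcacactg
Each of these windows occurs 1 time in the genome. The ZNF738 sites lie in the 3′ UTR of the listed isoform ENST00000311015 and outside the exons of the gene's canonical isoform. The ZNF805 site was edited in 16.7% and 40.0% of the reads of its isoform. At the first 2 ZNF738 sites the fractions were 11.1% and 3.45%, and 7.41% and 3.45%. The third ZNF738 site, 7 nt 5′ of the element, had 3.70% and 3.45%. The ZNF443 site had 4.76% and 4.0%. The edited C followed A in 3 of these 5 sites and U in the other 2. The files give fractions with no counts of reads, so the depth behind each site is unknown and no interval was computed. Zinc finger genes are paralogs of each other, and where reads could be split between near-identical copies a gene's values are uncertain.

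Across libraries, the zinc finger genes held 389 and 467 distinct edited Cs with RBFOX2-INSCRIBE, 123 and 315 with enzyme only and 142 and 153 with buffer only. An edited C is a position on the strand and in the exons of the gene, counted 1 time per library. Both RBFOX2-INSCRIBE libraries were above all 4 control libraries, while the enzyme-only replicate 2 was below every other library and the enzyme-only replicate 3 was above both buffer-only libraries. The mean was 428 ± 55.2 (SD, n = 2) in RBFOX2-INSCRIBE, 219 ± 136 in enzyme-only and 148 ± 7.78 in buffer-only, which gives ratios of 1.95 over enzyme-only and 2.9 over buffer-only. For 2 libraries against 2, 0.33 is the smallest p of a two-sided exact permutation test, so no such test here could pass 0.05, and p was 0.33 for both of these comparisons and 1.0 for enzyme-only against buffer-only. All genes together gave 200663 and 205830 edited Cs in RBFOX2-INSCRIBE, 86019 and 153740 in enzyme-only and 72723 and 71421 in buffer-only.

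Relative to those totals, the groups could not be told apart. The zinc finger genes held 0.194% and 0.227% of all edited Cs in RBFOX2-INSCRIBE, 0.143% and 0.205% in enzyme-only and 0.195% and 0.214% in buffer-only, and the 3 ranges overlapped. The ZNF genes of other chromosomes, 110 of which were listed, also overlapped, with 0.824% and 0.902%, 0.773% and 0.921%, and 0.870% and 0.844%. The other 336 protein-coding genes of chromosome 19 did not. Their share was 1.81% and 1.60% in RBFOX2-INSCRIBE and lay between 2.23% and 3.44% in the controls. The difference in share between RBFOX2-INSCRIBE and buffer-only was 0.00565 percentage points for the zinc finger genes and -1.72 for the other chromosome 19 genes, with p = 1.0 and p = 0.33 in exact permutation tests.

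The median edit fraction of the zinc finger genes was 2.94% and 2.63% in the RBFOX2-INSCRIBE libraries, 4.17% and 3.03% in enzyme-only and 3.23% and 3.13% in buffer-only, against 0.518% to 0.763% for all genes and 1.02% to 1.49% for the ZNF genes of other chromosomes. The lowest fraction listed for a zinc finger gene was 0.541%. A fraction cannot fall below 1 read over the reads of its isoform, and the part that read numbers play in these medians was not tested. Of 1472 distinct sites, 1370 were listed in 1 library, 89 in 2, 12 in 3 and 1 in 5. The authors had removed edits found in every sample, which limits the upper end of these counts. The RBFOX2-INSCRIBE libraries shared 34 sites, which is 8.74% and 7.28% of their sites, against 25.1% and 24.5% over all genes. Of those 34 sites, 26 were in no control library. The enzyme-only libraries shared 9 sites, 7.3% and 2.9% of theirs, against 13.4% and 7.47% over all genes, and 7 of the 9 were in no other library. The buffer-only libraries shared 6 sites, 4.2% and 3.9% of theirs, against 9.07% and 9.24% over all genes, and 2 of the 6 were in no other library. For the counts in no control or no other library, shares over all genes are not given here.

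Editing was concentrated in a few genes. The 3 genes with the most edited Cs over all libraries, ZNF714, ZNF121 and ZNF614, held 21.8% of the members' edited Cs, and the first 8 held 42.9%. Only 20 of the 64 genes had an edited C in all 6 libraries, 9 had one in a single library, and 45 had a mean under 5. ZNF714 had 33 and 29 edited Cs in RBFOX2-INSCRIBE, 15 and 32 in enzyme-only and 12 and 17 in buffer-only. RBFOX2-INSCRIBE was above buffer-only in ZNF714 but overlapped enzyme-only. ZNF121, which is known to interact with MYC, had 41 and 24, then 14 and 11, then 7 and 8. The 3 groups did not overlap in ZNF121. ZNF614 had 35 and 28, then 11 and 18, then 5 and 7, and its groups did not overlap either. ZNF224, a KRAB repressor known to act on the aldolase A promoter, had 22 and 25, then 5 and 13, then 4 and 9. Over all 64 genes, 21 had both RBFOX2-INSCRIBE values above both enzyme-only values and 1, ZNF776 (0 and 0 against 5 and 6), was lower, where 38.5% and 5.31% of all listed genes were. Against buffer-only, 26 were higher in both and 0 were lower, where 57.4% and 2.29% of all listed genes were. Of the 64 genes, 10 were listed only in RBFOX2-INSCRIBE libraries, 5 of them in a single library, where 3.59% of all listed genes were, and RBFOX2-INSCRIBE libraries list more edited Cs in all. They had 2 to 11 edited Cs each and included ZNF551 (3 and 8 edited Cs), ZNF613 (7 and 3) and ZNF473 (0 and 2), whose product takes part in histone pre-mRNA processing.

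**Figure D1:**
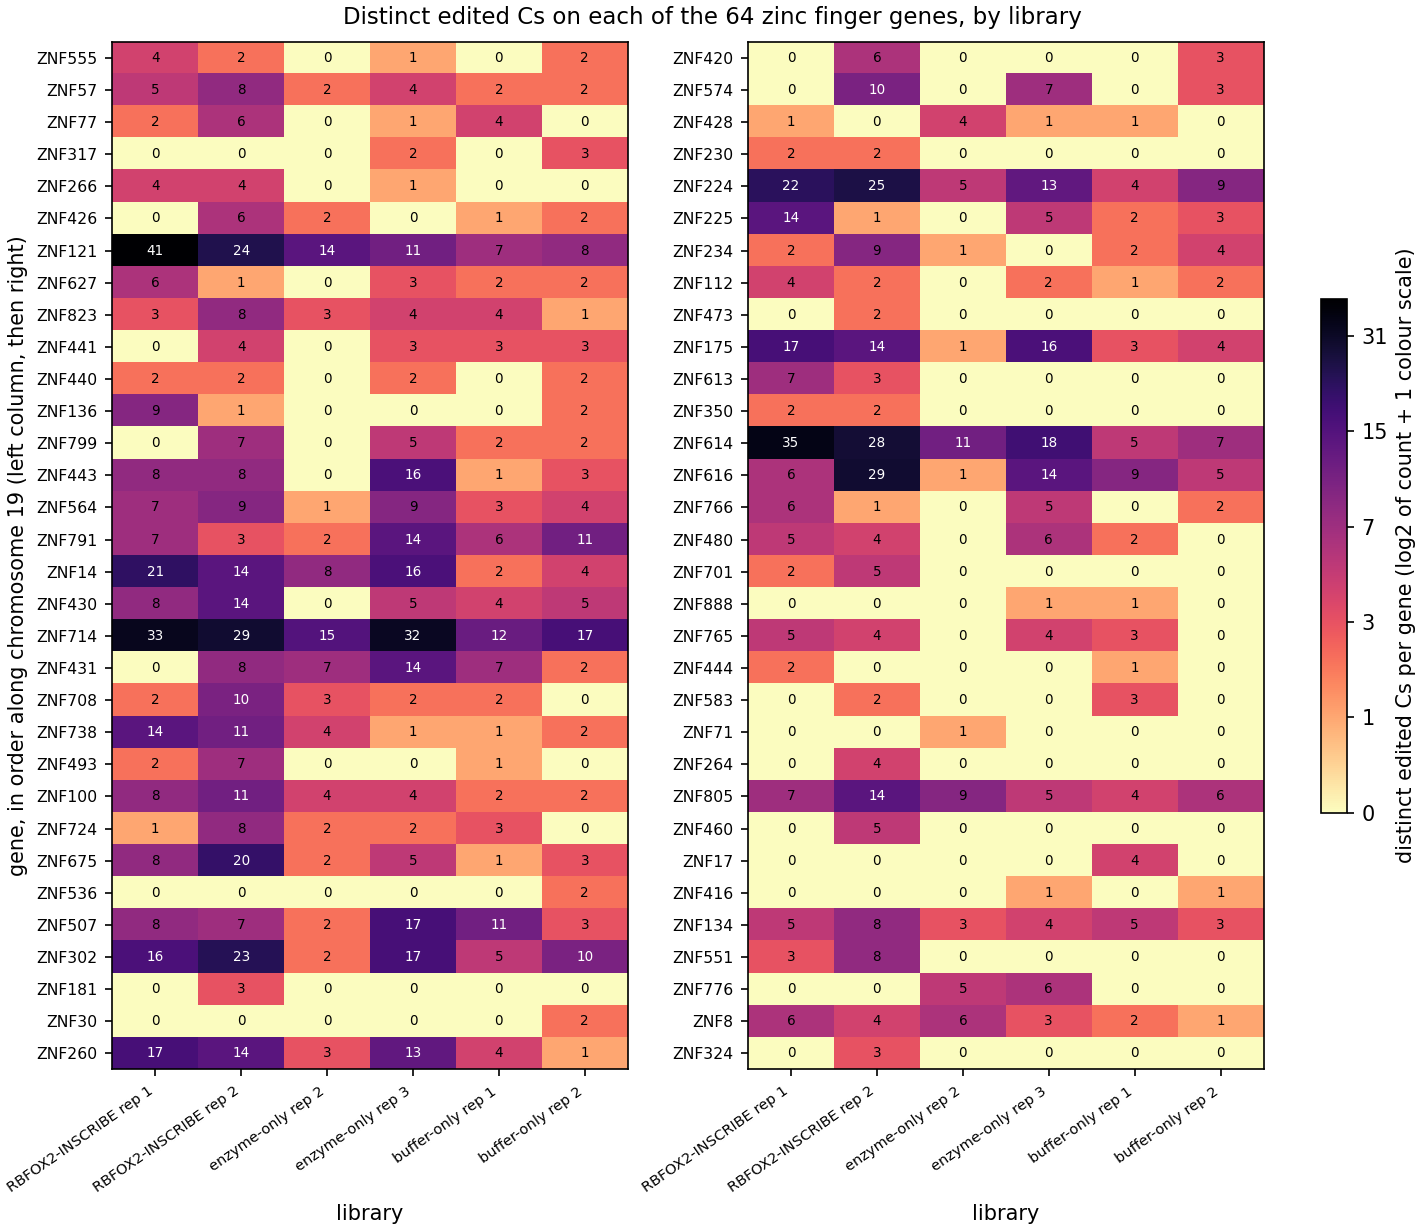
Distinct edited Cs of each of the 64 genes (rows, in order along chromosome 19) in each of the 6 libraries (columns), with the count printed in each cell and a log2 colour scale. The dark rows are ZNF121, ZNF714, ZNF614, ZNF224 and a few others, and the column of enzyme-only replicate 2 holds only 123 edited Cs.

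Whether single genes carried more edited Cs with the RBFOX2 antibody was tested with limma on log2 of edited Cs per C, adding 0.5 to each count, over all genes whose mean over the libraries compared was 5 edited Cs or more. Against enzyme-only, 21 of the 64 zinc finger genes could be tested and 0 had an adjusted p under 0.05 in limma, where 0.118% of 5088 genes were called higher. At an unadjusted p under 0.05, 5 of the 21 passed, against 16.9% of all genes. The log2 difference was above 0 in 19 of 21, with a median of 1.21, against 85.7% and a median of 0.85 over all genes. The filter used the mean of both groups, so a gene with few enzyme-only edits could enter through its RBFOX2-INSCRIBE counts alone. That favours differences above 0, and it holds against buffer-only too. ZNF430 and ZNF738, each with an enzyme-only mean of 2.5, entered in this way. How far this raised the median was not tested. Without enzyme-only replicate 2 the median was 0.17 with 14 of 25 above 0, below the 0.35 of all genes. With each library scaled to the same total of edited Cs it was 0.45 with 14 of 21 above 0 and 0 at an unadjusted p under 0.05 in limma, beside 0.02 over all genes. The other 2, ZNF431 (0 and 8 edited Cs against 7 and 14) and ZNF791 (7 and 3 against 2 and 14), overlapped enzyme-only and are named after their values were seen. The largest difference was in ZNF430, with 8 and 14 edited Cs in RBFOX2-INSCRIBE, 0 and 5 in enzyme-only and 4 and 5 in buffer-only. Its log2 difference was 2.74 with an SE of 1.32 and a limma adjusted p of 0.278. ZNF738 had 14 and 11, then 4 and 1, then 1 and 2, and differed by 2.31 with an SE of 0.79 (limma adjusted p = 0.151). ZNF675, whose product is known as a TRAF6-inhibitory zinc finger protein, had 8 and 20, then 2 and 5, then 1 and 3. It differed by 1.83 with an SE of 0.75 (limma adjusted p = 0.232). In ZNF224, ZNF121, ZNF260, ZNF100 and ZNF614 the log2 differences lay between 1.12 and 1.48, and both RBFOX2-INSCRIBE libraries were above both enzyme-only libraries. In 9 of the 21 both RBFOX2-INSCRIBE libraries were above both enzyme-only libraries, against 51.8% of all genes tested, and in 0 they were below, against 3.56%. The comparison rested on the enzyme-only libraries, which differed from each other: without enzyme-only replicate 3, 6 zinc finger genes were called higher, where 32.4% of 5115 genes were, and without enzyme-only replicate 2, 0 of 25 were called by limma, as were 0 of 5253 genes, with 1 at an unadjusted p under 0.05, where 12.1% of genes were.

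Against buffer-only, limma called 11 of 20 tested zinc finger genes higher at an adjusted p under 0.05, where 61.1% of 4804 genes were, and 0 lower, where 0.0624% were. In 15 of the 20 the RBFOX2-INSCRIBE libraries were both above the buffer-only libraries, where 80.6% of all genes tested were. The median log2 difference was 1.62 in the tested zinc finger genes and 1.54 over all genes. ZNF738 rose most, by 2.74 with an SE of 0.50 (limma adjusted p = 0.00343). ZNF614 rose by 2.31 with an SE of 0.41 (limma adjusted p = 0.00315), and ZNF14 by 2.40 with an SE of 0.50 (limma adjusted p = 0.00597). ZNF14 had 21 and 14 edited Cs in RBFOX2-INSCRIBE, 8 and 16 in enzyme-only and 2 and 4 in buffer-only, so it was apart from buffer-only and overlapped enzyme-only. ZNF260, known as a partner of GATA4 in heart muscle cells, had 17 and 14, then 3 and 13, then 4 and 1, and rose by 2.62 over buffer-only with an SE of 0.69 (limma adjusted p = 0.0144). ZNF675, ZNF121, ZNF175, ZNF100, ZNF443, ZNF224 and ZNF302 also rose, by 1.37 to 2.53 on the log2 scale. ZNF175 (17 and 14, then 1 and 16, then 3 and 4) and ZNF302 (16 and 23, then 2 and 17, then 5 and 10) were apart from buffer-only and overlapped enzyme-only. ZNF714, the most edited gene, had a log2 difference of 1.09 with an SE of 0.45 and a limma adjusted p of 0.0675, and ZNF616 (6 and 29, then 1 and 14, then 9 and 5) had 0.94 with an SE of 0.76. With each library scaled to the same total of edited Cs, 0 of 19 zinc finger genes were called by limma, where 1.22% of 4852 genes were called in either direction, and 2 passed at an unadjusted p under 0.05, where 26.2% did. That scaling brought the median of all genes from 1.54 to 0.01, and the median of the zinc finger genes to -0.06. Limma called 0 of 19 without RBFOX2-INSCRIBE replicate 1 and 0 of 15 without replicate 2, with 5 and 4 at an unadjusted p under 0.05. In those fits, with 1 RBFOX2-INSCRIBE library each, it also called 0 of 4526 and 0 of 4566 genes over all, with 38.6% and 37.6% at an unadjusted p under 0.05. Without buffer-only replicate 1 it called 4 of 22, where 44.4% of 5019 genes were called higher.

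**Figure D2:**
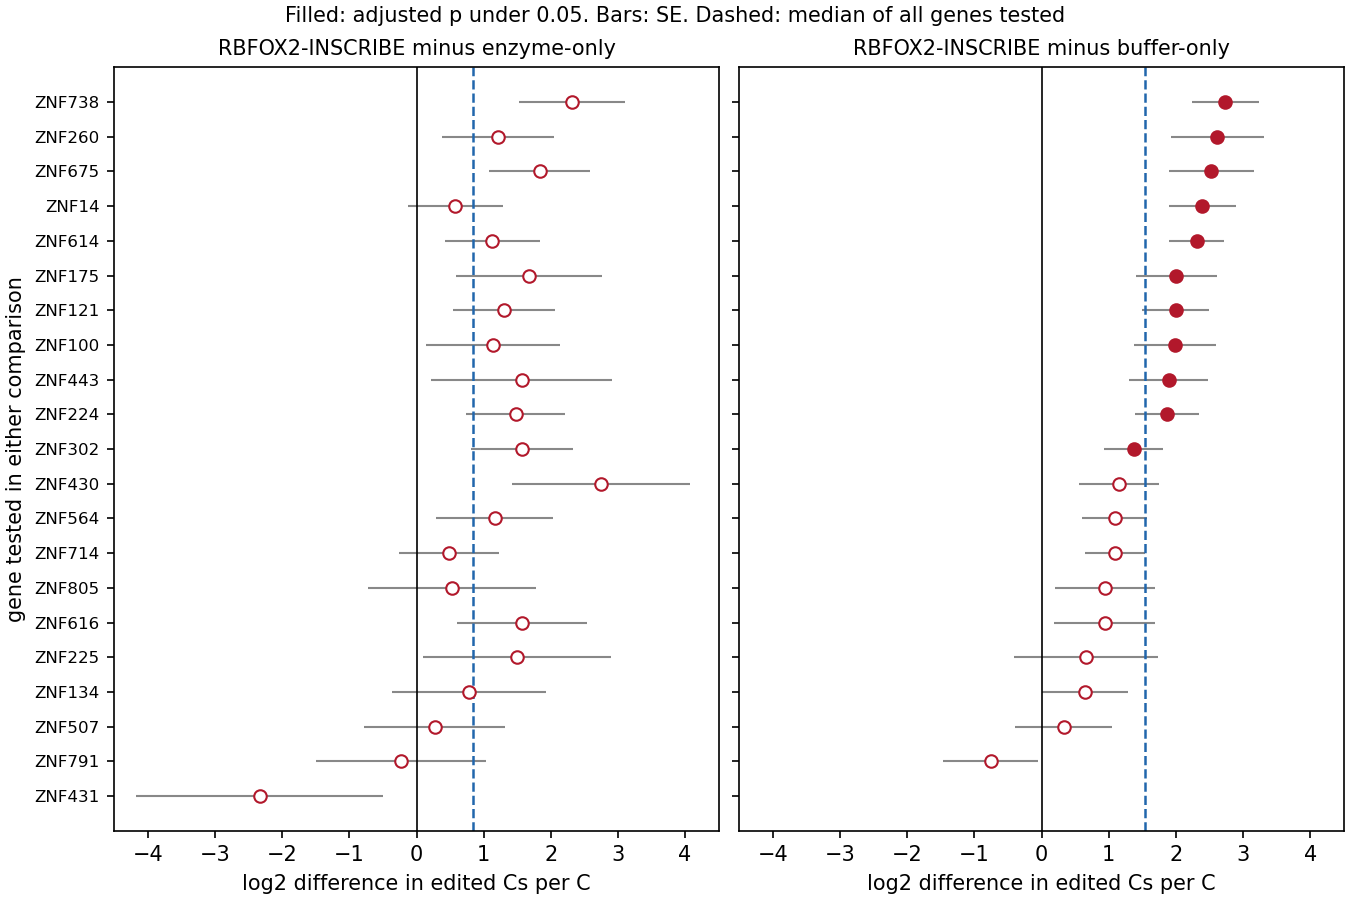
Log2 difference in edited Cs per C between RBFOX2-INSCRIBE and enzyme-only (left) or buffer-only (right) for the zinc finger genes tested in either comparison, with SE bars. Filled points have a limma adjusted p under 0.05 (0 on the left and 11 on the right), and the dashed line is the median of all genes tested, 0.85 and 1.54.

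Enzyme-only against buffer-only, which asks what Apo1-Nb did without the RBFOX2 antibody, called 0 of 14 tested zinc finger genes with limma, where 0.546% of 4209 genes were called higher, and 1 of the 14 passed at an unadjusted p under 0.05, where 15.1% did. In 3 of the 14 both enzyme-only libraries were above both buffer-only libraries, where 44.4% of genes tested were. The median log2 difference was 0.41, against 0.69 over all genes. Over all 64 genes, 6 were higher in both enzyme-only libraries than in both buffer-only libraries and 1 was lower, where 30.8% and 2.76% of all listed genes were.

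**Figure D3:**
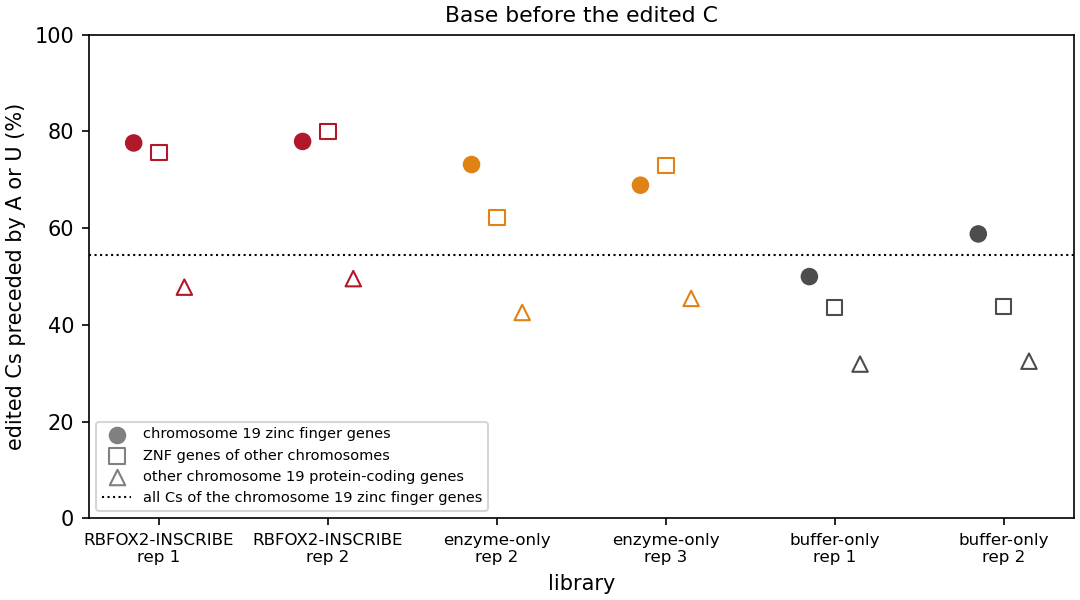
Share of edited Cs that follow A or U (percent, y axis) in each library (x axis) for the chromosome 19 zinc finger genes, the ZNF genes of other chromosomes and the other protein-coding genes of chromosome 19. Filled points fall from 77.6% and 77.9% in RBFOX2-INSCRIBE to 50% and 58.8% in buffer-only, around the dotted line at 54.4% for all Cs of the zinc finger genes.

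APOBEC1 is known to prefer a C that follows A or U, and the base before the edited C separated the groups in the zinc finger genes. In RBFOX2-INSCRIBE, 77.6% and 77.9% of their edited Cs followed A or U, in enzyme-only 73.2% and 68.9%, and in buffer-only 50% and 58.8%. All Cs of the canonical isoforms of these genes gave 54.4%, which lay between the buffer-only libraries. RBFOX2-INSCRIBE was above enzyme-only by 6.76 percentage points and above buffer-only by 23.4, and enzyme-only was above buffer-only by 16.6. None of these groups overlapped, and p was 0.33, the smallest possible, in each exact permutation test. The ZNF genes of other chromosomes gave 75.7% and 80.0%, 62.3% and 73.0%, and 43.6% and 43.8%. The other genes of chromosome 19 were lower throughout, with 47.8% and 49.6%, 42.6% and 45.5%, and 31.9% and 32.5%.

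The RBFOX element stood near a larger share of the edited sites with the antibody than without it. In the RBFOX2-INSCRIBE libraries 31 of 389 (7.97%) and 37 of 467 (7.92%) edited sites of the zinc finger genes had UGCAUG within 50 nt, read on the strand of the gene. With enzyme only, 3 of 123 (2.44%) and 10 of 315 (3.17%) had it, and with buffer only 3 of 142 (2.11%) and 6 of 153 (3.92%). The share expected if every C of the same exon were equally likely to be edited was between 3.63% and 4.82%. The ratio of observed to expected was 1.83 and 1.98 in RBFOX2-INSCRIBE, 0.507 and 0.725 in enzyme-only and 0.583 and 1.05 in buffer-only. RBFOX2-INSCRIBE was above each control in every library, by 1.29 on average over enzyme-only and 1.09 over buffer-only (exact permutation p = 0.33 for both). The ratio over all genes was 1.45 and 1.48 in RBFOX2-INSCRIBE and between 0.995 and 1.01 in the controls. In the ZNF genes of other chromosomes it was 1.39 and 1.59 in RBFOX2-INSCRIBE. There too enzyme-only was below 1, with 0.655 and 0.787, and buffer-only gave 1.10 and 0.946. Divided by the ratio of all other genes, the zinc finger ratio was 1.27 and 1.34 in RBFOX2-INSCRIBE, 0.507 and 0.716 in enzyme-only and 0.574 and 1.05 in buffer-only, and this difference between groups also gave p = 0.33 in an exact permutation test. Without ZNF14, the gene with the most such sites, the ratios were 1.75 and 1.99, then 0.523 and 0.417, then 0.432 and 1.28. Without ZNF738 they were 1.67 and 1.86, then 0.542 and 0.731, then 0.594 and 1.08.

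Split by transcript region, the sites near UGCAUG stood out in the coding sequence, a split chosen after the values were seen. In the coding sequence of the zinc finger genes, 19 of 121 and 18 of 176 edited sites had UGCAUG within 50 nt in RBFOX2-INSCRIBE, 15.7% and 10.2%, while 0 of 25 and 2 of 124 had it in enzyme-only and 1 of 51 and 2 of 62 in buffer-only. The ratio to expected was 2.43 and 2.13 in RBFOX2-INSCRIBE and between 0.00 and 0.725 in the control libraries. In the coding sequence of all other genes the ratio was 1.09 and 1.08 in RBFOX2-INSCRIBE and between 0.911 and 0.967 in the controls. In 3′ UTRs the zinc finger genes gave 7 of 241 and 15 of 261 sites in RBFOX2-INSCRIBE, ratios of 0.924 and 1.64, which overlapped the 0.695 to 1.44 of the controls. All other genes gave 1.59 and 1.63 in RBFOX2-INSCRIBE and 1.02 to 1.07 in the controls. Within the coding sequence, the zinc finger ratio over that of other genes was higher in RBFOX2-INSCRIBE by 1.95 than in enzyme-only and by 1.45 than in buffer-only (exact permutation p = 0.33 for both, the smallest possible). In the 3′ UTR these differences were -0.229 and -0.204 (exact permutation p = 0.67 for both). ZNF14 held 17 of the 37 coding sites. Without it, 9 of 104 and 11 of 166 coding sites had the element in RBFOX2-INSCRIBE, with ratios of 2.69 and 1.89, against 0 of 21 and 0 of 113 in enzyme-only and 1 of 50 and 2 of 58 in buffer-only, where the second library then gave 1.17.

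**Figure D4:**
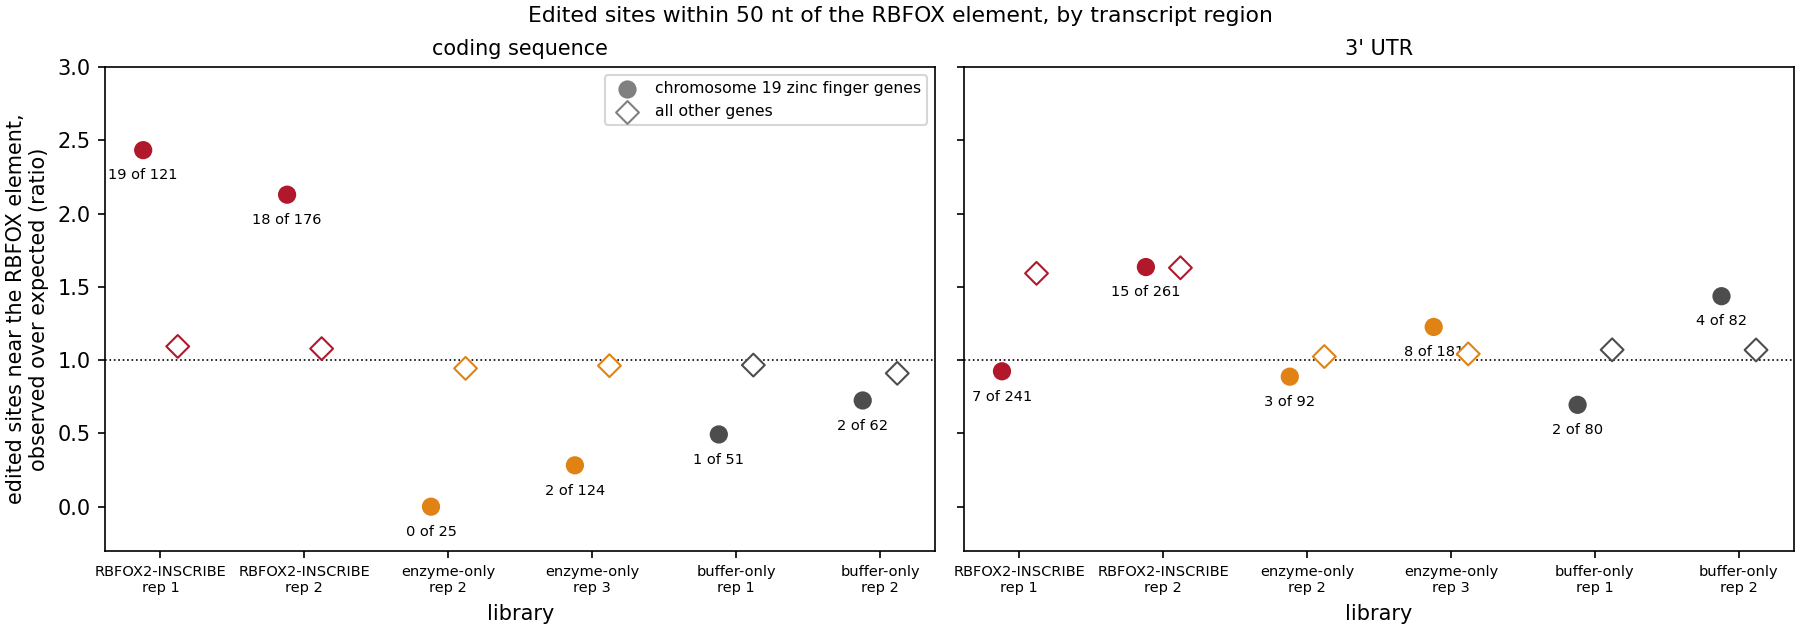
Edited sites within 50 nt of UGCAUG, observed over expected (y axis), in each library (x axis), for the coding sequence (left) and 3′ UTR (right), in the chromosome 19 zinc finger genes (filled circles, with sites near the element of all sites printed) and all other genes (open diamonds). In the coding sequence the zinc finger genes stand at 2.43 and 2.13 in RBFOX2-INSCRIBE and at or under 0.725 in the controls, and in the 3′ UTR their libraries overlap.

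Many of the coding elements sat at the same places of the finger repeat. The listed exons of the zinc finger genes held 108 copies of UGCAUG in 52 genes, of which 55 were in coding sequence, 49 in 3′ UTR and 4 outside the canonical isoform. Of the 55 coding copies, 39 fell within a finger and linker that matched the C2H2 pattern. Counting residues from the first zinc-binding cysteine as 1, 13 copies began in residue 16, and in all 13 the CAU of UGCAUG was the codon of residue 17, the first zinc-binding histidine. Another 9 began in residue 27 of the linker and ran into the next finger's first cysteine, with GCA as the codon of residue 28 in all 9. Of the 13 copies at the histidine, 9 had an edited site within 50 nt in a RBFOX2-INSCRIBE library, and of the 9 copies in the linker, 4 did. More of the 13 were in ZNF14 than in any other gene, and its canonical isoform holds 7 copies of UGCAUG in all. In the controls, the only histidine copy with sites nearby was the ZNF14 copy at 19711801, with 2 in enzyme-only replicate 3. The linker copies of ZNF823 and ZNF564 each had 1 buffer-only site. ZNF14 shows 3 of the histidine copies side by side, with the element in capitals (hg38, minus strand, element coordinates).
ZNF14, chr19:19711633-19711638: gtcaaattcgatTGCATGaaaggactcaca
ZNF14, chr19:19711801-19711806: gttcctttcgacTGCATGaaagaacacaca
ZNF14, chr19:19712137-19712142: tttctcttcgatTGCATGaaagaactcata
Each of these 30-base windows occurs 1 time in the genome. The copy at 19711633 had 1 and 3 edited sites within 50 nt in the RBFOX2-INSCRIBE libraries and 0 in each control library. The copy at 19711801 had 3 and 0 in RBFOX2-INSCRIBE and 0 and 2 in enzyme-only, and the copy at 19712137 had 1 and 1 and 0 in each control. A further copy in the ZNF14 3′ UTR, at 19710911, went the other way, with 1 and 0 sites in RBFOX2-INSCRIBE, 1 and 4 in enzyme-only and 1 and 0 in buffer-only. Fingers of 1 gene share sequence and are not replicates of each other.

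Over all 108 copies, 37 had an edited site within 50 nt in any library. RBFOX2-INSCRIBE sites were near 30 copies, enzyme-only sites near 8 and buffer-only sites near 9. The groups differed in edited sites of these genes, with 856, 438 and 295 over their libraries. The counts of copies here and below were not divided by those numbers. In both RBFOX2-INSCRIBE libraries 12 copies had an edited site, none of which had one in an enzyme-only library, and 10 had one in no control library. In both enzyme-only libraries 1 copy had a site, and in both buffer-only libraries 0 did. Outside ZNF14, the copies edited in both RBFOX2-INSCRIBE libraries included 2 in ZNF738, with 4 and 3 sites near chr19:21378098-21378103 and 1 and 1 near chr19:21377704-21377709. In ZNF823, chr19:11721484-11721489 of the 3′ UTR had 1 and 3 sites and 0 in each control. In ZNF675, chr19:23654384-23654389 of the coding sequence had 1 and 2 and 0 in each control. ZNF134 had 2 such copies in its 3′ UTR, with 1 and 2 sites near each and 1 buffer-only site near one of them, and ZNF714 had chr19:21123968-21123973 with 2 and 2 sites and 1 in a buffer-only library. In the RBFOX2-INSCRIBE libraries 15 and 22 sites lay 3′ of the nearest element and 16 and 15 lay 5′ of it.

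**Figure D5:**
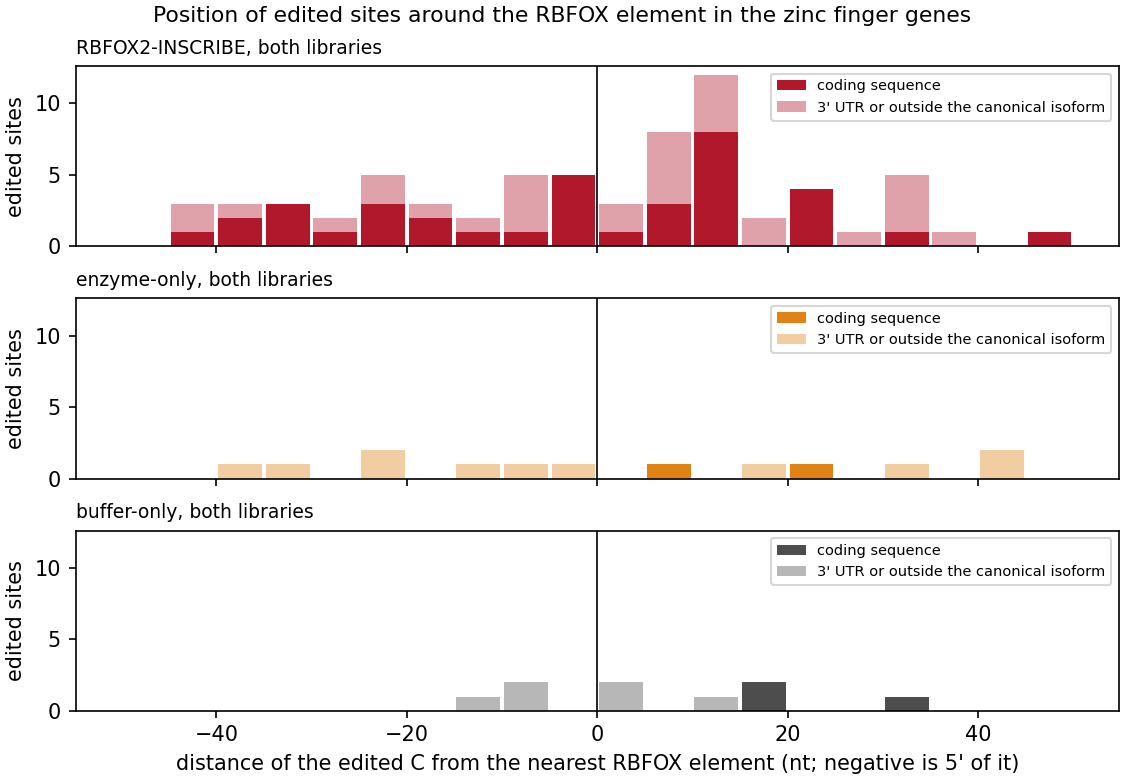
Distance of edited sites of the zinc finger genes from the nearest UGCAUG (x axis, nt, negative is 5′ of the element) for the sites within 50 nt, summed over the 2 libraries of each group, in bins of 5 nt. The RBFOX2-INSCRIBE sites, 31 and 37 in the 2 libraries, lie on both sides of the element, and coding sites (dark) are 19 and 18 of them.

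The fingers themselves were edited more often than the rest of the coding sequence in every library, whatever the treatment. In RBFOX2-INSCRIBE, 76 of 121 and 88 of 176 coding sites lay in a finger, which is 62.8% and 50%, where fingers held 43.3% of the coding Cs. Per C, a finger was edited 2.21 and 1.31 times as often as the rest in RBFOX2-INSCRIBE, 1.42 and 1.59 times in enzyme-only and 2.20 and 1.40 times in buffer-only. The groups overlapped (exact permutation p = 1.0 for each comparison). Within the repeat, residues 15 and 22 held 8 and 9 sites among 549 Cs and 11 and 11 sites among 727 Cs in the RBFOX2-INSCRIBE libraries. Per 1000 Cs and library, residue 15 gave 15.5 in RBFOX2-INSCRIBE, 7.29 in enzyme-only and 6.38 in buffer-only. Residue 22 gave 15.1, 6.88 and 3.44. Residue 4 gave more in RBFOX2-INSCRIBE, 17.65, from 3 sites. All are counts of few sites, for residues not set in advance, and are given as a description.

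By transcript region, the 3′ UTR held 62.0% and 55.9% of the zinc finger edits in RBFOX2-INSCRIBE, 74.8% and 57.5% in enzyme-only and 56.3% and 53.6% in buffer-only. The coding sequence held 31.1% and 37.7%, 20.3% and 39.4%, and 35.9% and 40.5%. RBFOX2-INSCRIBE overlapped both controls in both regions (exact permutation p = 0.67 to 1.0). Over all genes, 57.6% and 58.5% of edits were in 3′ UTR in RBFOX2-INSCRIBE against 42.0% and 42.3% in buffer-only. In the ZNF genes of other chromosomes the 3′ UTR share was 63.6% and 65.4% against 46.8% and 44.6%. Per 1000 Cs of the zinc finger genes, 7.37 and 7.98 Cs of the 3′ UTR were edited in RBFOX2-INSCRIBE, 2.81 and 5.54 in enzyme-only and 2.45 and 2.51 in buffer-only, and the coding sequence gave 4.87 and 7.08, 1.01 and 4.99, and 2.05 and 2.49.

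Along the chromosome the genes fell into 15 groups of neighbours less than 1 Mb apart. The group from ZNF175 to ZNF765, chr19:51571283-53412009, with 10 genes, held 85 and 90 edited Cs in RBFOX2-INSCRIBE, 13 and 64 in enzyme-only and 23 and 18 in buffer-only. The group from ZNF430 to ZNF100, chr19:21020657-21767579, with 7 genes, held 67 and 90, 33 and 58, and 29 and 28. The largest group by members, the 13 genes of chr19:56141287-58475436 near the end of the chromosome, held 23 and 48, 24 and 19, and 19 and 11. The first 2 groups were apart from both controls in RBFOX2-INSCRIBE, and the last overlapped enzyme-only. All genes together were apart in the same way, with 200663 and 205830 edited Cs against at most 153740 in a control library. The counts of these groups were not divided by such totals. The 54 genes with a KRAB pattern had 6.55 edited Cs per 1000 Cs in RBFOX2-INSCRIBE, 3.12 in enzyme-only and 2.17 in buffer-only, as means of 2 libraries, and the 10 genes without it had 9.15, 5.73 and 3.55. Those 10 genes held 107 and 94 edited Cs in RBFOX2-INSCRIBE, most of them in ZNF121 (41 and 24) and ZNF714 (33 and 29). Genes with 12 or fewer fingers had 7.16, 3.70 and 2.34 per 1000 Cs, and genes with 13 or more had 6.86, 3.47 and 2.51. The 52 genes with UGCAUG in the canonical isoform had 6.41, 3.40 and 2.35. The 12 genes without it had more in each group, 10.25, 4.58 and 2.78. ZNF121, ZNF224 and ZNF302 are among those without it.

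The proteins that KRAB zinc finger proteins work through were also edited. Of a list of 20 corepressor genes, 16 had an edited C, and the list held 804 and 782 edited Cs in RBFOX2-INSCRIBE, 307 and 568 in enzyme-only and 291 and 276 in buffer-only. With limma, 0 of 12 tested were called against enzyme-only, 1 at an unadjusted p under 0.05, where 0.118% and 16.9% of all genes were, and 7 of 11 were higher against buffer-only, near the 61.1% of all genes. The median log2 differences were 0.84 and 1.27, beside 0.85 and 1.54 over all genes. HDAC2, a histone deacetylase, had 178 and 156 edited Cs, then 42 and 120, then 56 and 48. CBX5, the heterochromatin protein HP1 alpha, had 128 and 178, then 58 and 135, then 65 and 57. HDAC1 had 131 and 129, then 64 and 95, then 59 and 59. SMARCAD1, a remodeller that binds TRIM28, had the highest difference over buffer-only in the list, 2.89, with 44 and 60, then 14 and 19, then 7 and 6. TASOR and PPHLN1, subunits of the HUSH silencing complex, and CBX1 were the other genes called. TRIM28 itself had 25 and 24, then 14 and 25, then 16 and 17, and was not called in either comparison.

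The labelled cell line was checked on edited Cs alone, which are listed for detected transcripts and give no expression level. Of 8 genes known for HEK293 cells, 6 had edited Cs, 65 to 301 per library, while of 6 kidney epithelium genes only 1 had any (2 to 13 per library), and 0 of 4 lymphoid and fibroblast genes did. RBFOX2 had 0 and 1, 0 and 1, and 0 and 3 edited Cs, and RBFOX1 and RBFOX3 had none.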

How the data were processed

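Long-read edit lists of 6 libraries were used. Per the methods, the authors used ccs v8.0.0 for consensus reads, skera v1.2.0 for splitting, lima v2.9.0 and refine v4.1.1 for trimming, pbmm2 v1.13.0 for alignment to hg38 at a quality of 20 or more, and IsoQuant v3.3.0 for unique isoform assignment. Edits found in every sample and dbSNP positions were removed. The deposited value is the fraction of reads edited at a position of an isoform, with no read numbers, so depth is unknown. Isoforms, coding sequence and UTRs came from GENCODE release 44 (the long-read annotation version is not given in the sources used here) and sequences from hg38, read with pysam 0.24.0. Distinct edited Cs per gene were tested over all genes with limma 3.58.1 (R 4.3.3, trend and robust, Benjamini-Hochberg), tested on simulated data first. Per-library values were compared with two-sided exact permutation tests. UGCAUG was searched on the gene's strand and compared with all Cs of the same exon, and overlapping windows were counted once per site. A KRAB match is a pattern in the first 250 residues, set on sequences alone. Groups came from sample titles. Named genes were the 8 with the largest difference from enzyme-only among those apart, up to 4 of those lower in both libraries, the 8 most edited, and, of the genes called, the 8 with the smallest adjusted p per comparison; genes named for a site or an element follow the site rule or were chosen after their values were seen. The members and lists were chosen with earlier results of these data known. Alternatives covered the pseudocount, the filter, scaling, strand, edit fraction, window, isoform, block and each library. A site and an element chosen by these rules are not reported here.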

Additional observations from a re-analysis of the deposited data

How the results depend on the processing

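With 2 libraries a group and no read numbers, few values could pass a test and site precision is unknown. Against buffer-only, 11 zinc finger genes were called. This became 6 of 7 tested where the mean had to reach 10 edited Cs, beside 2629 of 3371 called higher over all genes. It was 0 of 19 with scaling to the same total, beside 25 of 4852. With all 3 groups in one fit it was 7 of 20, beside 2074 of 4804. With an edit fraction of at least 0.02 it was 4 of 14, beside 641 of 1820 over all genes. With a library left out, the median log2 difference was 1.31 to 1.78, beside 1.51 to 1.59 over all genes. Against enzyme-only, 0 of 21 were called, beside 6 of 5088 over all genes. With a library left out, the median log2 difference there was 0.17 to 1.52, beside 0.35 to 1.30 over all genes. Same-numbered libraries did not deviate together (r between -0.0248 and 0.11 over 4801 genes), and with the replicate number as a block the counts called were 0, 11 and 0. In the block the enzyme-only replicates 2 and 3 carried the numbers of the other label, 1 and 2. Over all genes the block moved the calls against enzyme-only from 6 to 28 and those of enzyme-only over buffer-only from 23 to 8.

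Single genes turned their sign against enzyme-only under scaling in ZNF14 (-0.21) and ZNF714 (-0.32), with the higher edit fraction in ZNF14 (-0.78), and without enzyme-only replicate 2 in ZNF175, ZNF616 and ZNF714. With a library left out these ranged from -0.051 to 3.41, -0.066 to 3.21 and -0.048 to 1.02. Against buffer-only, scaling turned ZNF302 (-0.056), ZNF430 (-0.24), ZNF616 (-0.48) and ZNF714 (-0.37), and ZNF616 ranged from -0.15 to 2.03 with a library left out, being below 0 without RBFOX2-INSCRIBE replicate 2. The causes were not tested, except that scaling removes the difference in library totals.

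The ratio of member sites, 1.49 for enzyme-only over buffer-only, ranged from 0.834 to 2.14 with a library left out. The difference in share between RBFOX2-INSCRIBE and buffer-only was -0.0015 percentage points with either strand, -0.152 with the higher edit fraction and -0.00229 without ZNF714, ZNF121 and ZNF614 (chosen after seeing the data), and -0.0109 to 0.0221 with a library left out, and that of enzyme-only and buffer-only ranged from -0.0618 to 0.000149. With all regions together, the UGCAUG ratio of RBFOX2-INSCRIBE exceeded that of enzyme-only by 0.608 to 1.85 and that of buffer-only by 0.737 to 1.32 under every alternative run. Split by region, the excess was 2.14 and 1.67 in the coding sequence. In the 3′ UTR it was 0.223 and 0.214, and the libraries overlapped the controls. Enzyme-only against buffer-only gave 0.222 with a window of 100 nt and -0.43 to 0.0335 with a library left out. In the 25 nt window the buffer-only replicate 2 reached 1.73, against 1.99 and 2.42 in RBFOX2-INSCRIBE. In the 100 nt window RBFOX2-INSCRIBE gave 1.34 and 1.84, beside 1.33 and 1.335 over all genes. The enzyme-only replicate 2 gave 1.19 there.

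With a library left out, the 3′ UTR share of RBFOX2-INSCRIBE less enzyme-only ranged from -15.9 to 1.46 percentage points and the coding share from -4.97 to 14.1. Coding share of enzyme-only less buffer-only ranged from -17.9 to 1.15. The 5′ UTR share ranged from -0.0735 to 1.85 against enzyme-only and from -1.76 to 0.17 against buffer-only. With the higher edit fraction the 3′ UTR share against buffer-only was -0.254. Enzyme-only fingers were edited 1.63 times as often as the rest with a looser finger pattern and 1.89 times with the higher edit fraction, against 1.5.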

Other observations

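Some edits of the zinc finger genes fall where C-to-U would alter the codon's meaning. The cells were fixed before the editing step, so this is a reading of the sequence and no change in protein was measured. C-to-U in the coding sequence would make a stop codon at 17 and 17 sites in RBFOX2-INSCRIBE, 1 and 16 in enzyme-only and 7 and 7 in buffer-only, of 121 and 176, 25 and 124, and 51 and 62 coding sites, where 8.75% of all coding Cs would. It would change an amino acid at 68 and 102, 16 and 78, and 25 and 35 of them, where 53.4% of all coding Cs would. As shares of the coding sites, the groups overlapped for stop codons, and for amino acid changes both enzyme-only libraries were above the other 4.

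After the authors' removal of edits found in every sample, the site found in most libraries was in the 3′ UTR of ZNF224. It was listed in the 5 libraries other than enzyme-only replicate 2, at fractions from 0.781% to 3.75%. The edited C is in capitals.
ZNF224, chr19:44109481-44109509, plus strand: atttaaatcctcctCtttattgctggcag
No UGCAUG lay within 50 nt of it. Of the 12 sites found in 3 libraries, 7 were in both RBFOX2-INSCRIBE libraries and 3 in control libraries alone. The latter included a pair in the ZNF791 3′ UTR whose 29-base windows occur 86 and 65 times in the genome.

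Edits on the opposite strand of the zinc finger genes, which read as G-to-A on the transcript and were not counted above, numbered 16 and 16 in RBFOX2-INSCRIBE, 6 and 20 in enzyme-only and 12 and 26 in buffer-only. Edited Cs exceeded them 24.3 and 29.2 times, 20.5 and 15.8 times, and 11.8 and 5.88 times. ZNF507 was listed only through an isoform annotated as a retained intron, with 8 and 7, then 2 and 17, then 11 and 3 edited Cs.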
